A study of Mus musculus with 13 samples.

Results

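Pools CT38 and CT42 were the 2 of 12 pools of mouse aorta with the highest levels of transcripts typical of cardiac atrial muscle, and they were compared with the other 10 pools. They were chosen by the light chain genes Myl7 and Myl4, the troponin gene Tnni3, the myosin gene Myh6 and the natriuretic peptide gene Nppa in the same values that are described here. The levels of these 5 genes in the 2 pools are therefore a description, and no test was made of the difference between the 2 pools and the rest. Averaged over Myl7 and Myl4, the log2 intensity was 11.91 in CT42 and 11.76 in CT38, and the next pools were CT58 at 10.99 and CT62 at 10.92. The same 2 pools led in the mean over all 5 genes, at 11.11 in CT42 and 11.07 in CT38, with CT58 next at 10.22.

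The mice were of the strain the labels give as c57/Bl6, with no genetic or drug treatment named. They had 2 weeks of 12 h light and 12 h dark, then 36 h without light, and aortae were then taken each 4 h over 48 h. The RNA of 6 aortae was pooled at each time point from CT18 to CT62, so each time point is 1 pool and the spread between single mice is not known. All groups share this handling. CT38 and CT42 correspond to circadian times 14 h and 18 h, in the subjective night, and each has a partner pool of the same circadian time, CT62 for CT38 and CT18 for CT42. The arrays were one-colour arrays of short oligonucleotides, 13 in all, with a pair at CT18 that was averaged on the log2 scale.

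Atrial muscle cells carry their own versions of several sarcomere proteins, among them the regulatory light chain Myl7 and the essential light chain Myl4, where ventricular muscle uses Myl2 and Myl3. They also make and store atrial natriuretic peptide, the product of Nppa, and release it when the atrial wall is stretched. Tnni3, Tnnt2 and Myh6 encode troponin I, troponin T and alpha myosin heavy chain of the working heart muscle in general, and cardiac-type muscle also lies in the walls of the large veins next to the heart.

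The values were intensities in arbitrary units. Those below 36.7 were raised to that floor before taking log2, and a gene was represented by its brightest probe set. Array medians lay between 70.4 and 87.6, with 79.8 for CT38 and 75.4 for CT42. Of the probe sets kept, 4.03% were at the floor in CT38 and 6.02% in CT42, against a range of 2.15% to 6.02% over all pools. The 3' to 5' ratio of actin was 1.87 and 2.01 in these pools, within the 1.64 to 2.21 of all arrays. The profiles of CT38 and CT42, centred on the mean of all pools, had a correlation of -0.15 across genes, inside the -0.39 to 0.25 found for all pairs of pools. Genes are not independent replicates, and the value says only that these pools were no closer to each other than other pairs.

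The regions upstream of 4 of the genes are shown. Nppa, Nppb and Myl7 were higher in both pools. Myl2, a light chain gene of ventricular and slow skeletal muscle, was at the floor in both. It was also at the floor in some of the other pools, so it did not separate the groups. Each is the 250 bases before a start of the gene in RefSeq (for Myl2, the first of the 2 listed) on GRCm38.p6, in the direction of transcription. Capitals mark matches to GATA-type sites (the letters AGATAA, the letters AGATAG, the letters TGATAA or the letters TGATAG), to the M-CAT site (CATTCC) or to the CArG box, each searched on both strands. The Nppa region is chr4:148000472-148000721 on the plus strand, Nppb lies at chr4:147985650-147985899 on the plus strand, Myl7 at chr11:5898783-5899032 on the minus strand and Myl2 at chr5:122092474-122092723 on the plus strand.
Nppa: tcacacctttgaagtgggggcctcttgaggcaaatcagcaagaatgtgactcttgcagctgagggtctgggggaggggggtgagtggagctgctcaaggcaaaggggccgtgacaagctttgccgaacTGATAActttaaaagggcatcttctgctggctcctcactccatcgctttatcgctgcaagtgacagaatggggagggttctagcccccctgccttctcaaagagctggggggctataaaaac
Nppb: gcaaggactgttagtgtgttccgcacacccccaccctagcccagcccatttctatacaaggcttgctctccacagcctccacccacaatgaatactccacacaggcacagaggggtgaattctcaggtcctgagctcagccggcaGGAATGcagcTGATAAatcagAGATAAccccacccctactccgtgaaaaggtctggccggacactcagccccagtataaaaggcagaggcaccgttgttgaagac
Myl7: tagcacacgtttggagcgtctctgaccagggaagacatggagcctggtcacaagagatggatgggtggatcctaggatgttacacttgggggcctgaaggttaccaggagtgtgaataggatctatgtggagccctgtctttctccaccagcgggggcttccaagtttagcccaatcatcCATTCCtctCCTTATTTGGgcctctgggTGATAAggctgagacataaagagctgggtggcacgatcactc
Myl2: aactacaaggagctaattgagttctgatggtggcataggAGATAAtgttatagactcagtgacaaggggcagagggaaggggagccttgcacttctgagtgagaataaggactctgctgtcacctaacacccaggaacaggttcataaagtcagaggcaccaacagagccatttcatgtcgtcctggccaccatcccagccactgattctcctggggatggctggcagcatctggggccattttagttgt

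A GATA-type match stood in all 4 regions shown. RefSeq gave a further start for Myl2, and its region, chr5:122092939-122093188, held 0 matches to any of the motifs. Beside its GATA-type match, the Myl7 region held an M-CAT and a CArG box match. Of the 9 cardiac genes that lay above all other pools, 8 were matched to the table of upstream regions, with 9 windows in all, and Atp2a2 was not among them. GATA-type matches stood in 5 of the 9 windows (Myh6, Myl7, Nppa, Nppb and Tnnt2) against 26.5% of 32851 mouse windows of the same length. The M-CAT site also stood in 5 of 9 (Myh6, Myl7, Nppb, Tnnc1 and Tnnt2) against 12.6%. The CArG box stood in 1 of 9, that of Myl7, against 1.47%, and the MEF2 site in 0 of 9 against 2.92%. These are matches of letters in short windows and were not tied to any binding measurement.

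The 5 atrial genes that defined the pools were each higher in both pools than in any of the other 10. The mean log2 difference was widest for the peptide gene Nppa, which also varied most among the other pools. Nppa measured 1435 in CT38 and 989 in CT42, while the others ranged from 112 to 562 with a median of 234. The difference was 2.30 on the log2 scale (4.93-fold), where the other 10 pools had an SD of 0.73. The 2 pools did not overlap the rest, and the lower of them was 1.76-fold above CT58, the highest of the others. In pooled tissue RNA, more cells of a type and more RNA per cell cannot be told apart.

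Of the atrial light chains, Myl7 measured 4064 in CT38 and 4568 in CT42 against 1121 to 2235 in the others (median 1662). Its difference was 1.39 (2.62-fold, SD of the others 0.31). Both pools lay well clear of the rest, the lower of them 1.82-fold above CT62, the highest of the others. Myl4 measured 2970 and 3236 against 1264 to 1959 (median 1649), a difference of 0.94 (1.91-fold, SD 0.22), again without overlap. A further probe set of Myl4 gave 2766 and 2775 against 886 to 1656 and a difference of 1.13.

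The sarcomere genes among the 5 were also higher in both pools. Tnni3 measured 1742 in CT38 and 2263 in CT42 against 635 to 1097 (median 947), a difference of 1.17 (2.25-fold, SD 0.29). Myh6 measured 1538 and 1603 against 509 to 1011 (median 873), a difference of 1.00 (2.00-fold, SD 0.35). Without CT42 the difference of Tnni3 was 0.98, and against CT62 and CT18 alone it was 0.94, both under the minimum of 1 used for calls. For neither gene did the groups overlap, and in both the lowest pools were CT30, CT46 and CT50.

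**Figure D1:**
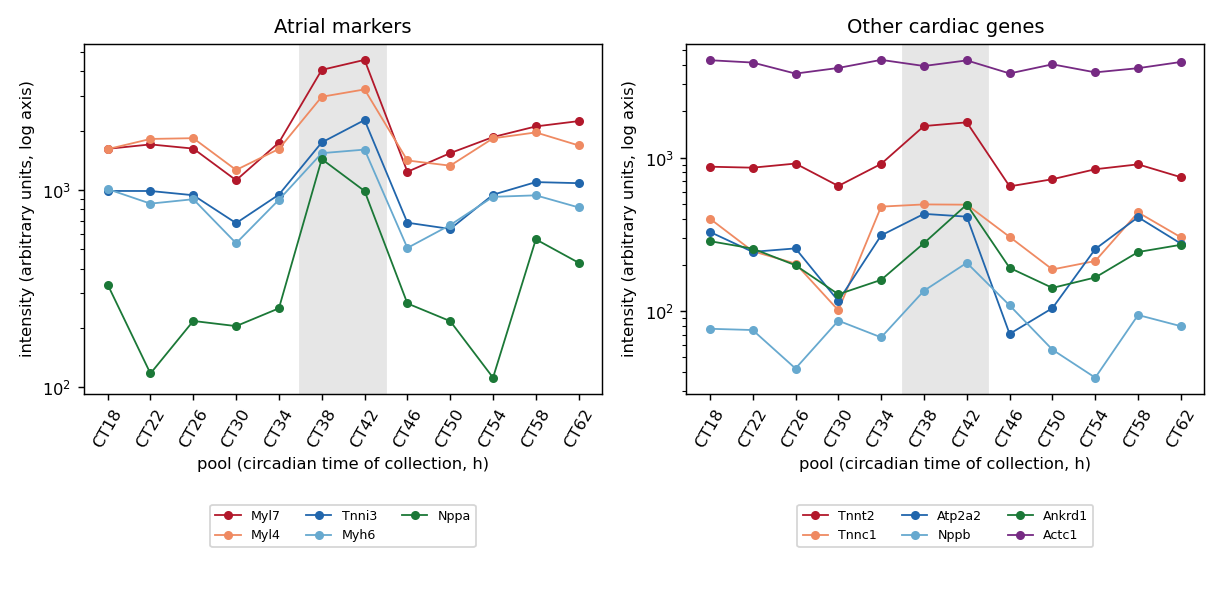
Intensity (arbitrary units, log axis) of the 5 atrial genes (left) and of 6 other cardiac genes (right) in each of the 12 pools, with CT38 and CT42 shaded; points are single pools and CT18 is the mean of 2 arrays. Nppa reaches 1435 in CT38 against at most 562 in an unshaded pool, and the brightest Actc1 probe set is level across all pools.

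To count genes over the whole table, a gene was called higher where both pools lay above all other 10 and the mean difference was at least 1 on the log2 scale, about a doubling. Of 5655 genes measured, 12 were called higher (0.212%), and 51 (0.902%) lay above all others with no minimum difference. In the opposite direction 11 were called lower (0.195%) and 64 (1.13%) lay below all others. The cardiac lists together held 147 genes, of which 110 were on the array and 87 passed the filter on low intensity. Of these 87, 9 lay above all other pools and 0 below, and 6 were called higher: Nppa, Myl7, Tnni3, Nppb, Tnnt2 and Atp2a2. Of the 9, 5 are the genes that chose the pools, so only Nppb, Tnnt2, Tnnc1 and Atp2a2 are additional. The ranges overlapped for 78, and for 66 of those the difference was smaller than 0.5 in size. The median difference of the 87 was 0.04, beside 0.00 over all genes, with 51 of 87 above 0 beside 2893 of 5655. Myh6 fell just short of the minimum difference, and Atp2a2 at 1.01 was just inside it.

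Nppb encodes B-type natriuretic peptide, made in atrial and in strained ventricular muscle, and was placed in the ventricular list. It measured 135 in CT38 and 206 in CT42, and in the others from the floor to 109 with a median of 75.8. The difference was 1.28 (2.43-fold, SD of the others 0.50), and the lower of the 2 pools was 1.25-fold above the highest other pool, CT46. With the floor at the 40th percentile its difference was 0.79, and without CT42 it was 0.98, both under the minimum of 1. The next gene, Tnnt2, is cardiac troponin T. It measured 1604 and 1696 against 649 to 913 (median 849), a difference of 1.04 (2.06-fold, SD 0.19). Both pools lay 1.76-fold or more above every other pool, the widest gap among the 4 additional genes.

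Tnnc1, troponin C of heart and slow skeletal muscle, and Atp2a2, the calcium pump of the heart's sarcoplasmic reticulum, which smooth muscle also uses, lay above the rest only by a thin margin. Tnnc1 measured 495 and 493 against 101 to 479 (median 272), a difference of 0.91 (SD 0.68). Atp2a2 measured 429 and 412 against 70.9 to 408 (median 254), a difference of 1.01 (SD 0.83). The margin over the highest other pool was 1.03-fold for Tnnc1, over CT34, and 1.01-fold for Atp2a2, over CT58. The difference of Atp2a2 was under the minimum of 1 without CT30 (0.92), CT38 (0.98), CT46 (0.84) or CT50 (0.90), with the floor at the 40th percentile (0.97) and against CT62 and CT18 alone (0.49). With arrays centred on their medians, and likewise with quantile normalization, 8 cardiac genes lay above the others: Tnnc1 and Atp2a2 then overlapped them and Fhl2 no longer did.

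**Figure D2:**
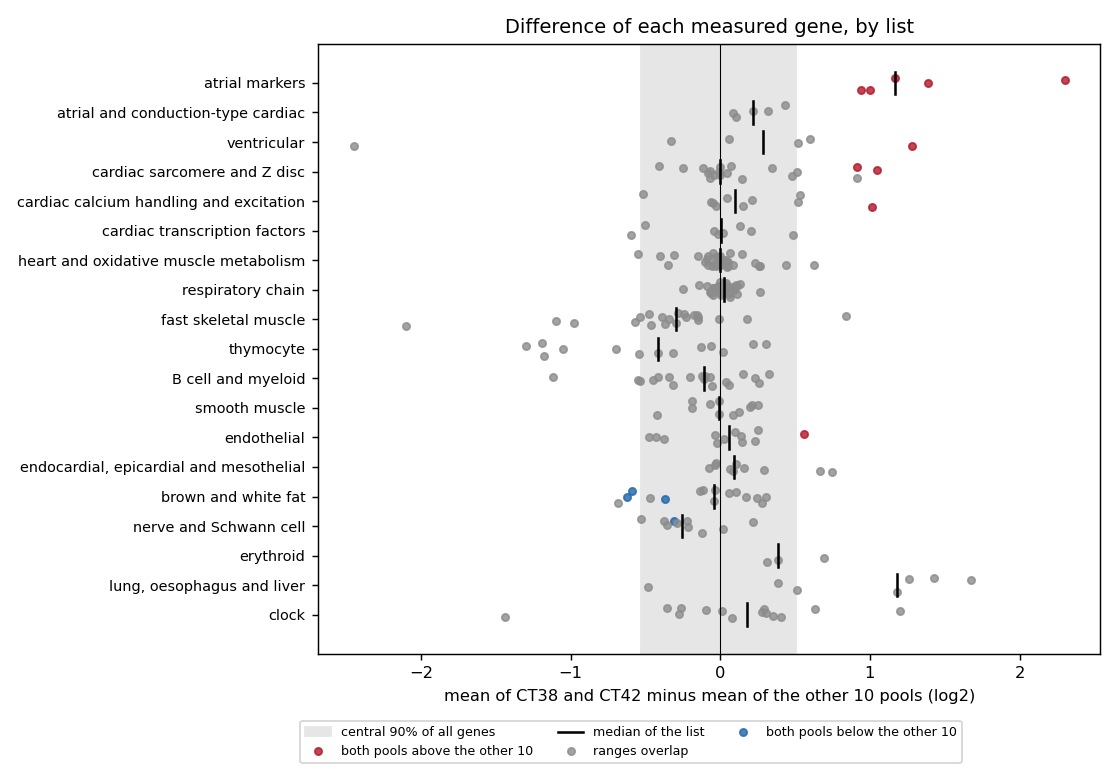
Difference in mean log2 intensity between CT38 and CT42 and the other 10 pools for each measured gene of 19 gene lists, with the list's median as a vertical bar and the central 90% of all genes in grey. Red points (both pools above all others) are 5 of 5 atrial markers, 4 other cardiac genes and the endothelial gene Pecam1, and most cardiac genes lie inside the grey band.

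Several cardiac genes did not lie above all the other pools. Among other atrial and conduction-type genes 14 of 20 were on the array and 5 passed the filter. Of these, 0 of 5 lay above the other pools, which at 0.902% over all genes is not a result about the list. Their median difference was 0.22, with all 5 above 0. Pam, a peptide-amidating enzyme abundant in atrial granules, measured 272 and 268 against 111 to 380. Gja5, connexin 40 of atrial muscle and arterial endothelium, measured 219 and 193 against 151 to 246. The factors Nr2f2 and Bmp10 had differences of 0.09 and 0.11, and Dkk3 0.43. Sln, which encodes the atrial calcium pump regulator sarcolipin, did not pass the filter and was at the floor in both pools, with at most 63.7 in another pool. The label of atrial rather than general heart muscle thus rests on Myl7, Myl4 and Nppa, which helped to choose the pools.

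Ventricular-type genes gave no common direction. Myl2, the regulatory light chain of ventricular and slow skeletal muscle, was at the floor of 36.7 in both CT38 and CT42. It was at the floor in 3 of the other pools too, and reached 1613 in CT34, 1102 in CT18 and 1076 in CT58 (median 216, difference -2.45). The 2 pools thus lay at the bottom of a wide range that they shared with CT26, CT30 and CT54. Myl3, the essential light chain of the same muscles, measured 563 and 849 against 152 to 1213, and Myh7, beta myosin heavy chain, 512 and 660 against 117 to 612. Both pools lay inside the range of the others for Myl3, and CT42 alone lay above it for Myh7. Gja1, connexin 43, measured 2013 and 3008 against 2614 to 3925, with CT38 below all the others.

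Of 19 sarcomere and Z-disc genes measured, 2 lay above all others (Tnnt2 and Tnnc1, the latter by a thin margin), beside 0.902% of all genes. The median difference of the list was 0.00. Actc1, cardiac alpha actin, depended on the probe set. Its brighter one measured 3951 and 4297 against 3525 to 4331 (difference 0.07), fully inside the range. The dimmer one measured 1990 and 2271 against 1056 to 1619 (difference 0.69), above every other pool. The suffix of the brighter probe set (f) is the array maker's mark for probes shared within a gene family, and skeletal, smooth and cardiac actins are close in sequence. Tpm1, a tropomyosin of all muscle types, had a difference of -0.04, Vcl, vinculin, -0.08 and the intermediate filament gene Des -0.01. Mybpc3, cardiac myosin-binding protein C, measured 472 and 566 against 318 to 529.

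The sarcomere-associated genes Ankrd1 and Fhl2, chosen after their values were seen, came close to separating. Ankrd1, a strain-responsive Z-disc protein, measured 277 in CT38 and 494 in CT42 against 128 to 285, a difference of 0.91 that came mostly from CT42. Without CT38 its difference was 1.33 and without CT42 it was 0.49. Fhl2, a LIM protein of heart muscle, measured 454 and 595 against 304 to 462, with CT38 just inside the range.

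Of 10 calcium handling and excitation genes measured, Atp2a2 alone lay above all others, beside 0.902% of all genes, and the other 9 overlapped the rest. Ryr2, a further cardiac gene, did not pass the filter. It measured 39.9 in CT38 and 45.8 in CT42, near the floor, with the other 10 pools at the floor. Casq2, cardiac calsequestrin, measured 179 and 226 against 197 to 363, a difference of -0.52 with CT38 below all others. Fxyd1, a regulator of the sodium pump, measured 1726 and 2098 against 1579 to 2102. Cacna1c, the L-type calcium channel, measured 248 and 295 against 132 to 277, and Hrc and Kcnq1 had differences of -0.06 and -0.05. Of 8 cardiac transcription factors measured, 0 lay above all others, which at 0.902% over all genes is not a result about the list. Their median difference was 0.00. Hopx measured 698 and 799 against 346 to 807, Gata6 453 and 744 against 474 to 836, and Tead1 and Mef2a had differences of 0.13 and -0.02. Nkx2-5, a defining factor of heart muscle cells, was at the floor in all pools.

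Heart metabolism genes, many of them abundant in heart muscle, had a median difference of -0.00 over the 34 measured. Of these, 0 lay above and 0 below all others, which at 0.902% and 1.13% over all genes is not a result about the list. Myoglobin (Mb) measured 1204 and 1315 against 734 to 3440. Cox8b, a muscle-type subunit of cytochrome oxidase that brown fat also expresses, measured 7986 and 8920 against 7057 to 9446. The fatty acid oxidation genes Hadhb and Acadm had differences of -0.08 and 0.01, and Lpl, lipoprotein lipase, 0.05. The 36 respiratory chain genes had a median difference of 0.02, and 0 of them lay outside the range of the others, again near the share over all genes.

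CT38 and CT42 were also set against the pools of the same circadian time, as a description with 1 pool on each side. All 9 genes that lay above the other 10 were higher in both pairs, as lying above every pool requires. CT38 minus CT62 was 1.75 for Nppa, 0.86 for Myl7, 0.82 for Myl4, 0.69 for Tnni3 and 0.91 for Myh6 on the log2 scale. CT42 minus CT18 was 1.58 for Nppa, 1.50 for Myl7, 1.01 for Myl4, 1.19 for Tnni3 and 0.67 for Myh6. Among the additional genes the smallest values were those of Atp2a2 (0.64 and 0.33) and Tnnc1 (0.71 and 0.30), while Tnnt2 gave 1.11 and 0.96 and Nppb 0.77 and 1.43. The 2 arrays of CT18 differed from each other by 0.64 for Nppa and by 0.20 or less in size for Myl7, Myl4, Tnni3, Myh6, Nppb and Tnnt2. Over all probe sets kept, the median size of that array difference was 0.19 and 6.78% of probe sets differed by more than 1.

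The 2 pools lay close to each other in most of these genes. Between CT38 and CT42 the log2 difference was 0.54 for Nppa, which was less than the 0.64 between the CT18 arrays, and -0.17 for Myl7, -0.12 for Myl4, -0.06 for Myh6, -0.08 for Tnnt2, -0.38 for Tnni3 and -0.60 for Nppb. Some cardiac-list genes, picked after their values were seen, were at the floor in one of the 2 pools only, so the size of their difference has no exact value. Got2 was 295 in CT38 and at the floor in CT42, and Gata4 105 and at the floor. Myl6 was at the floor in CT38 and 214 in CT42, and Kcnh2 at the floor and 402.

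**Figure D3:**
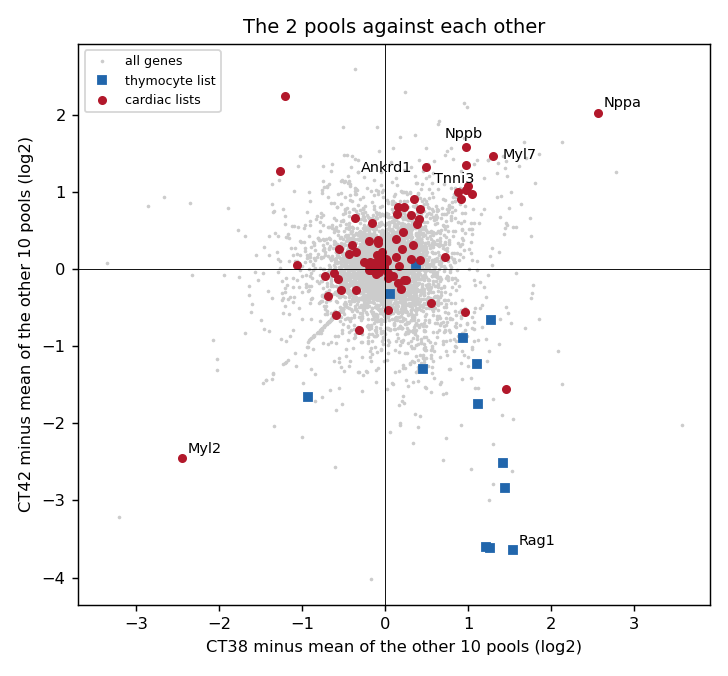
Log2 difference of each gene from the mean of the other 10 pools in CT38 (x axis) and in CT42 (y axis); grey dots are all 5655 genes, red circles the 87 cardiac genes and blue squares the 13 thymocyte genes. Nppa, Myl7, Tnni3 and Nppb lie at the upper right, Myl2 at the lower left, and most thymocyte genes are above 0 in CT38 and below 0 in CT42.

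Genes of tissues that lie next to the aorta were read in the same 2 pools. The thymocyte list, 13 genes measured, summed to 6805 in CT38 and 885 in CT42, against 1076 to 7343 in the others, so CT38 was near the top and CT42 below every other pool. Rag1, the recombinase of developing lymphocytes, was 1341 in CT38 and at the floor in CT42 (the others from the floor to 1460), and Dntt was 1083 in CT38 and at the floor in CT42. Of the 13 genes, 0 were at the floor in CT38 and 10 in CT42. Lef1 and Thy1 had the most negative mean differences of the list, -1.30 and -1.19, and both were at the floor in CT42. The high atrial transcripts thus stood beside high thymocyte transcripts in CT38 and low ones in CT42, and a link between them was not tested.

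Fast skeletal muscle genes summed to 14641 and 15824 in CT38 and CT42, inside the 9153 to 41054 of the others. Of these genes 0 of 21 lay above all others, near the 0.902% over all genes (median difference -0.29). Pvalb, a calcium buffer of fast fibres, was 528 in CT38 and at the floor in CT42, and Ryr1, the skeletal calcium release channel, was 49.6 and 75.3 against 42.4 to 477. The pools highest in skeletal muscle genes were others, and without CT18, CT34 and CT58, the 3 pools highest in skeletal muscle markers, 13 of 87 cardiac genes (14.9%) lay above the remaining 7 pools, beside 75 of 5655 genes (1.33%). Against all 10 pools the shares were 10.3% and 0.902%, and fewer pools to exceed make both larger by construction. The cardiac shares include the atrial genes that chose the pools, so they are no independent comparison with the shares of all genes. The smooth muscle list, the bulk of the aortic wall, summed to 19635 and 21351 against 18211 to 28132. Acta2, Myh11 and Tagln had differences of -0.19, -0.19 and 0.09, and Eln, elastin, measured 2958 and 4067 against 3212 to 6909, with CT38 below all others.

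Genes of squamous and airway epithelium were high in both pools but not only there. Krt4, an oesophageal keratin, measured 5677 and 5461 against 138 to 6145, Krt13 1862 and 1446 against the floor to 2102, and Scgb1a1, secreted by airway club cells, 5222 and 8940 against 553 to 7778. The list of 7 lung, oesophagus and liver genes had a median difference of 1.18, as large as the 1.17 of the atrial markers. Yet 0 of 7 in this list lay above all other pools, near the 0.902% over all genes. Its sum was 14299 and 17132 in the 2 pools against 3139 to 16741. CT62, the partner of CT38, was as high in Krt4 and Krt13 (CT38 minus CT62 of 0.07 and 0.09). Over the list the median was -0.42 for CT38 minus CT62 and 1.63 for CT42 minus CT18. The part of such material in the cardiac values was not tested.

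**Figure D4:**
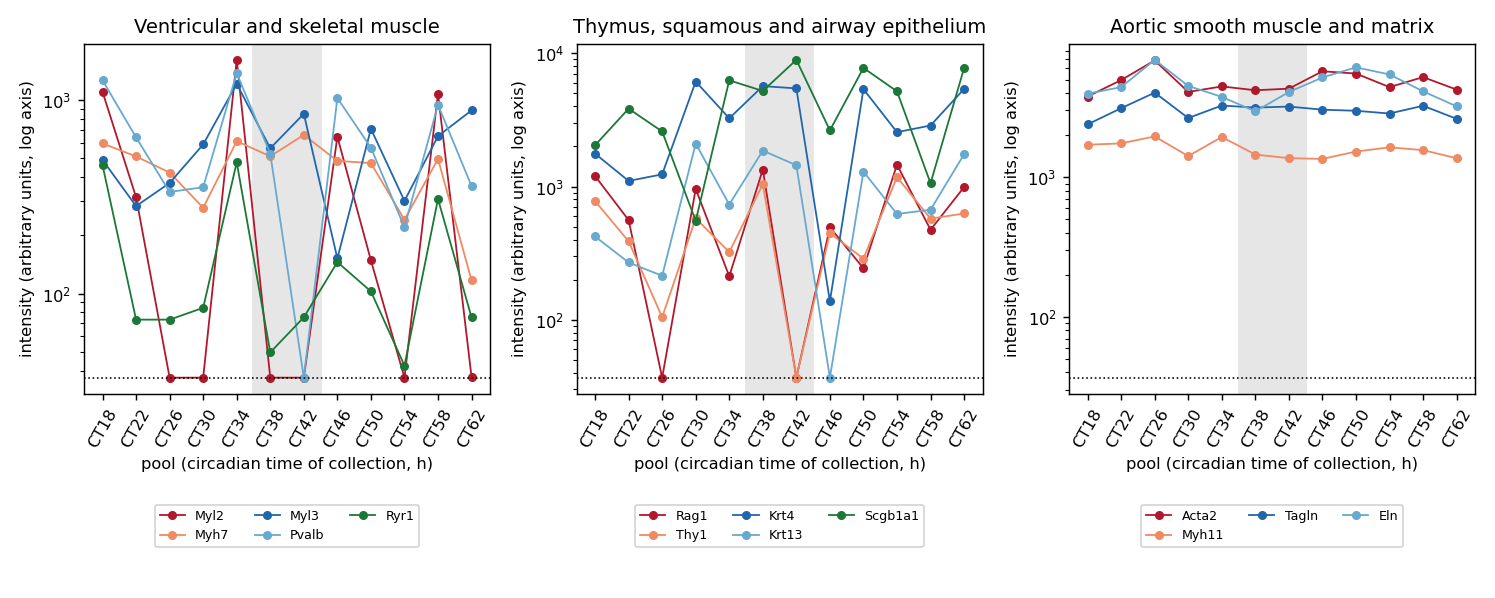
Intensity (arbitrary units, log axis) of ventricular and skeletal muscle genes (left), thymus and epithelial genes (centre) and aortic smooth muscle genes and elastin (right) in each pool, with CT38 and CT42 shaded and the floor of 36.7 dotted. Rag1 and Thy1 are high in CT38 and at the floor in CT42, Myl2 is at the floor in both, and Acta2 stays between 3777 and 6848.

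Whether other genes followed the atrial light chains was tested only in the 10 pools that were not chosen, with a limma slope of log2 intensity on the mean of log2 Myl7 and Myl4. That mean had an SD of 0.25 in these pools, with CT30 (10.22), CT46 (10.37) and CT50 (10.48) lowest. Of 5653 genes, 0 passed an adjusted p of 0.05 with a positive slope (0%) and 0 with a negative slope (0%). At an unadjusted p below 0.05 there were 1231, of which 387 were positive. The smallest adjusted p was 0.0537, shared by Urod, Ptk2b, Inhbc, Pde6a, Hsbp1 and Mmp14, none of them on a cardiac list. Leaving out CT34 gave 7 genes and leaving out CT50 gave 25. Each time point was 1 pool, so these p-values measure the spread between pools.

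Among the cardiac genes Tnni3 had a slope of 1.08 ± 0.19 (SE, limma adjusted p = 0.0577), Myh6 1.19 ± 0.26 (adjusted p = 0.0691) and Atp2a2 2.85 ± 0.57 (adjusted p = 0.0577), where 1 is a change in step with the light chains. Over the alternatives the adjusted p of Tnni3 ranged from 0.0135 to 0.777, that of Myh6 from 0.0195 to 0.920 and that of Atp2a2 from 0.0218 to 0.920. The slope of Tnni3 was positive in all 22 of them, as were those of Myh6 in 22 and Atp2a2 in 23. Tnnt2 had a slope of 0.60 ± 0.20 (adjusted p = 0.121) and Tnnc1 1.59 ± 0.69 (adjusted p = 0.203). Of the peptide genes, Nppa had 0.66 ± 0.87 (adjusted p = 0.692) and Nppb -0.56 ± 0.65 (adjusted p = 0.650), with no test between slopes. Both slopes changed sign under alternatives, Nppa to -0.14 without CT58. Kcnq1, a cardiac potassium channel gene, had a negative slope of -1.56 ± 0.27 (adjusted p = 0.0577).

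**Figure D5:**
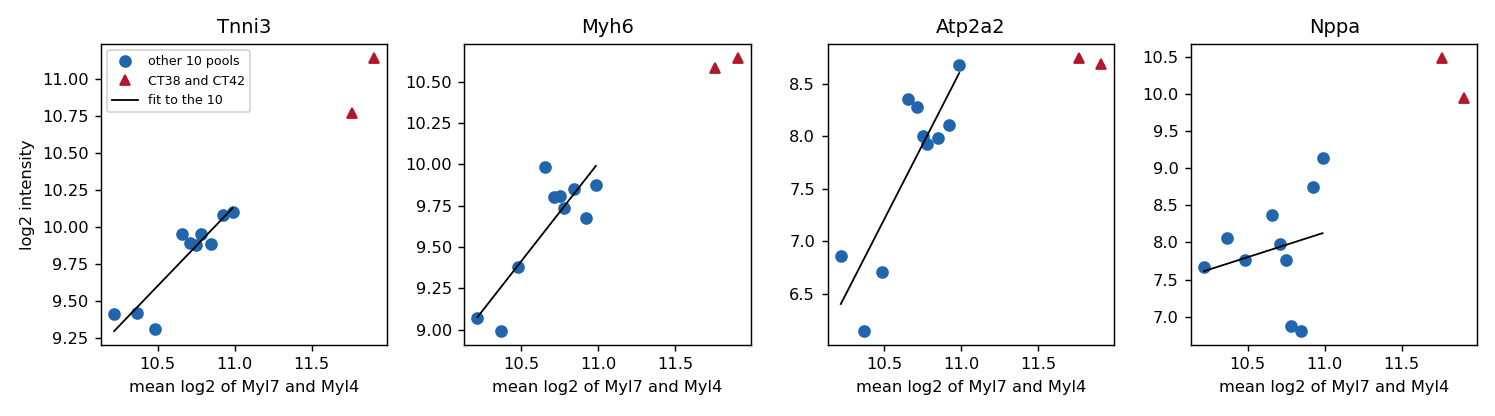
Log2 intensity of Tnni3, Myh6, Atp2a2 and Nppa against the mean log2 intensity of Myl7 and Myl4, with the other 10 pools as blue circles, CT38 and CT42 as red triangles and the line fitted to the 10. The line has a slope of 1.08 for Tnni3 and 0.66 for Nppa, and no slope passed the threshold.

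The slopes moved with the scaling of the arrays. CT30 and CT46, lowest in the light chains, had array medians of 87.6 and 84.7, the highest of the pools with a single array. The median slope of all genes was -0.14 as deposited, 0.18 with arrays centred on their medians and 0.02 with quantile normalization. Centred on medians, 487 genes passed, 417 positive and 70 negative, of which 15 were cardiac and 14 of those positive. With quantile normalization 0 passed, and 0 passed with the array median as a covariate, an alternative added after the data were seen. As deposited, 55 of the 85 cardiac genes had a positive slope, beside 2388 of 5653 genes. Of these 55, 30 were among the 34 heart metabolism genes, and the separate respiratory chain list had 32 of 36 positive. Positive slopes numbered 10 of 19 sarcomere and Z-disc genes, 4 of 10 calcium handling genes and 3 of 8 transcription factors. They numbered 3 of 6 ventricular genes, 2 of 5 other atrial genes and 3 of 3 atrial markers tested.

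The series was sampled to find 24-h rhythms, and CT38 and CT42 are next to each other in time. In a limma fit of a 24-h cosine, 22 of 5655 genes (0.389%) passed an adjusted p of 0.05 over the 12 pools, and 0 of the 87 cardiac genes were among them. Without CT38 and CT42, 6 of 5614 (0.107%) passed, all 6 of them among the 22 and 0 cardiac: Dbp, Fbxo21, Hspa8, Nr1d2, Ppara and Zfp36l2. Nppa and Myl7 helped to choose CT38 and CT42, which are at circadian times 14 h and 18 h. Their fit over all 12 pools is thus drawn to a peak near those times, and its p-value is no independent test. The fitted peak of Nppa was at 14.8 h and that of Myl7 at 15.0 h (adjusted p = 0.253 and 0.424), and the amplitude of Nppa was 1.15 with and 0.69 without the 2 pools. For Myl7 the amplitude was 0.55 with and 0.25 without them, on the log2 scale. Leaving out 1 pool changed the count of rhythmic genes to 8 without CT18, 8 without CT34, 7 without CT42, 14 without CT46, 7 without CT54, 10 without CT58 and 11 without CT62. It was 31 without CT30, 25 without CT26, 18 without CT38, 17 without CT22 and 15 without CT50.

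Outside the lists, some genes of low intensity lay above all others as far as the cardiac genes did. The largest differences were those of Gabbr1, a GABA receptor subunit (1.66), Ercc1, a DNA repair nuclease subunit (1.48), Sult4a1 (1.33), Shh, the hedgehog ligand (1.26), Cyp2b10, a xenobiotic-metabolising enzyme (1.24) and the kinase gene Yes1 (1.19). These 6 and the 6 cardiac genes named above make up the 12 genes called higher. Gabbr1 measured 179 and 178 against the floor to 123, and Shh 221 and 274 against 68.5 to 196. Gdpd3 (0.99), Urm1 (0.97), Alox12b (0.89) and Cd300c2 (0.87) followed below the minimum difference. Gdpd3 and Alox12b passed the filter on low intensity only through CT38 and CT42, which favours a place above the other pools. In all 38 genes passed that way, and 4 of them lay above all others, with Gjb6 and Sftpd as the further ones. These are 4 of the 51 genes above all others, of which 0 were cardiac and 0 called higher.

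Among genes below all others were Fos, an immediate early transcription factor, and Dusp6, a phosphatase induced by growth factor signalling. Fos measured 48.3 in CT38 and 108 in CT42 against 146 to 323, a difference of -1.50. Dusp6 measured 54.3 and 99.3 against 134 to 313, a difference of -1.60. In both genes the 2 pools were the lowest of the 12, with CT38 below CT42. Cbr1 (-1.68), Slc25a10 (-1.67) and Pigt (-1.26) completed the 5 with the largest differences.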

How the data were processed

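Aorta pools of 12 time points were measured on 13 one-colour arrays. The deposited table holds linear intensities, 1 per probe set and array; the labels name neither the software nor a normalization. Trimmed by 2% at both ends, every array had a mean of 200.2, and the intensities were used as the authors scaled them. Per array 21.3% to 24.2% of values were at or below 0.

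Of 12488 probe sets, 66 controls were left out. Of the other 12422, 10833 had 1 gene symbol, 396 several and 1193 none in the platform annotation, and 10817 of the named ones matched RefSeq (GRCm38.p6), which changed 0 symbols. Values were raised to a floor (the 20th percentile of positive intensities, 36.7), log2 was taken, and the CT18 pair was averaged, as the labels do not say whether it came from 1 pool. Probe sets with a mean intensity under the 40th percentile (48.5) were dropped, leaving 7453 probe sets and 5655 genes, each represented by its brightest probe set.

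CT38 and CT42 were selected on these values, so their contrast has no p-value. The slope on Myl7 and Myl4 in the other 10 pools (8 residual degrees of freedom) and the 24-h cosine (9 residual degrees of freedom) came from limma 3.58.1 (R 4.3.3), with moderated variances and an intensity trend, and Benjamini-Hochberg adjustment over all probe sets kept at 0.05. Both fits were run on simulated data with independent noise and no shared array effect, so the simulation does not cover the scaling of the arrays. Alternatives were the floor, filter, scaling, CT18 arrays, comparator, index, covariates and leaving out each pool. The rule for naming genes took the 5 atrial markers, the cardiac genes called higher and up to 4 of the brightest others of each cardiac list. It also took 2 of each other list and the largest differences outside the lists. Further genes were named outside this rule, among them Tnnc1, Mybpc3, Cacna1c, Sln, Nkx2-5, Dntt and Mbp, and not all of them are marked. The pools, genes and lists were chosen with earlier results of these data known. The number of arrays limits the precision. Upstream sequences are from RefSeq.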

Additional observations from a re-analysis of the deposited data

Results flagged for a closer look

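Among 74 named genes tested for a single stray pool in the other 10 pools, 2 stood out, and chance alone gives about 1 in 20. Rag1, the lymphocyte recombinase that was high in CT38 and at the floor in CT42, was 36.7, the floor, in CT26, with the next lowest pool at 212. Krt4, the oesophageal keratin high in both CT38 and CT42, was 138 in CT46 with the next lowest at 1103. Neither is a cardiac gene, and none of the cardiac genes tested had such a pool.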

How the results depend on the processing

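The differences of Nppa, Myl7, Tnni3, Myh6, Myl4, Nppb, Tnnt2, Atp2a2 and Tnnc1 stayed above 0 and that of Myl2 below 0 in all 22 alternatives, and that of Nppa ranged from 1.66 to 2.57. The genes above 0 were named because both pools exceeded every other pool, so leaving out pools or narrowing the comparator could not change their sign. Myl2 was at the floor in both pools, so its difference could not be above 0 at that floor. The difference of Actc1 was above 0 in 21 of 22 alternatives. Genes higher numbered 12 and lower 11. They became 6 and 2 (Dusp6 and Fos) with the floor at the 40th percentile, 6 and 7 with the filter at the 60th, 59 and 53 against CT62 and CT18 alone, 51 and 64 with no minimum difference, and 1 (Nppa) and 0 with a minimum of 2. Leaving out a pool gave 11 to 73 higher and 12 to 78 lower, with the top values without CT38 (73 and 78) and CT42 (60 and 61), where 1 pool is left and separation is easier by construction, and 17 lower without CT62. Cardiac genes above all others numbered 18 of 87 against CT62 and CT18 alone (20.7%, beside 13.3% of all genes, with fewer pools to exceed) and 9 to 17 when leaving out a pool, 17 without CT38. These cardiac counts include the atrial genes that chose the pools, so the excess over all genes is not independent of that choice.

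Genes with a slope past the threshold numbered 2 (Ptk2b and Urod) with the floor at the 10th percentile, 20 at the 40th, 15 with no filter, 28 with the filter at the 60th, 487 with arrays centred on their medians, 3 (Pde6a, Ptk2b and Urod) without the variance trend and 0 to 25 when leaving out a pool. The slope of Nppa was -0.14 without CT58, which was the lowest when leaving out a pool (highest 1.13), and -0.40 with 24-h covariates; that of Nppb was 0.11 on the mean of all 5 atrial genes and 0.64 with the array median as a covariate. Rhythmic genes numbered 14 and 2 with the floor at the 10th and 40th percentile, 3 with no filter, 4 with arrays centred on their medians, 6 without CT38 and CT42, 4 with the atrial index as a covariate, and 7 to 31 when leaving out a pool (8 without CT18). Of the cardiac genes 1, Lpl, passed with quantile normalization, and 0 to 1 when leaving out a pool (Lpl, without CT30). The causes were not tested. No paired analysis was possible because the labels give the pools no shared replicate numbers; pools of the same circadian time were compared as above, with no test. Between 21.3% and 24.2% of intensities are at or below 0, so low genes such as Myl2 have only an upper bound there.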

Other observations

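In gene lists not described so far, few genes lay outside the range of the other pools. Of 15 fat genes, 3 lay below all other pools, beside 1.13% of all genes: Lipe, hormone-sensitive lipase (1245 and 1594 against 1704 to 2712), the adipogenic receptor Pparg (546 and 475 against 556 to 788) and the coactivator Ppargc1a (41.5 and 46.5 against 50.3 to 99.5). The list's median difference was -0.04, and Dio2 had -0.68 with ranges that overlapped. Among 12 endothelial genes 1, Pecam1, lay above all others (104 and 94.2 against 39.2 to 92.3), beside 0.902% of all genes, while Eng had -0.48 with overlap. Of 10 nerve and Schwann cell genes, 1, Mbp, myelin basic protein, lay below by a thin margin (154 and 153 against 155 to 229). Counts of 1 in lists of this size are not a result about the lists. Nefh and Th had -0.53 and -0.37.

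The 3 erythroid genes had a median difference of 0.39, with Alas2 at 0.69 and Hbb-b2 at 0.39, all inside the range of the other pools. The mesothelial and epicardial genes Krt8 and Msln had 0.75 and 0.67, and the myeloid and leukocyte genes S100a8 and Ptprc -1.11 and -0.55, again with overlap. Of the respiratory chain genes, described above as a list, Atp5g1 had 0.26 and Atp5d -0.25. The clock genes Per2 and Dbp had 1.20 and -1.44, with Per2 at 228 and 107 and Dbp at the floor in both pools. Of 14 clock genes measured, 0 lay above and 0 below all other pools, near the shares over all genes. Both pools are of the subjective night, so for rhythmic genes such as Dbp these differences also hold time of day.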
